A study of Mus musculus with 3 samples.

Results

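Lysosomes are the acidic compartments in which cells break down proteins, glycans and lipids taken up from outside or delivered by autophagy. Their hydrolases are made as precursors in the secretory pathway, work at a low pH that the vacuolar proton pump maintains, and are enclosed by a membrane of heavily glycosylated proteins such as Lamp1 and Lamp2. The transcription factor TFEB and its relatives Tfe3 and Mitf are known to raise many lysosomal genes together, and macrophages are known for a large lysosomal compartment. The 33 genes described here encode cathepsins and other peptidases, glycosidases, proteins of lipid breakdown and export, membrane proteins, proton pump subunits, progranulin and TFEB. They were chosen by name from 34827 gene names on a mouse array, and each was read on its brightest probe, the one with the highest mean log2 processed signal over the 3 arrays.

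All arrays hold total RNA of a mouse acute myeloid leukaemia (AML) line named HoxA9-Meis1, taken from bone marrow of C57Bl/6 mice and kept for 24 h in SFEM medium. They were left untreated, given 3.4 µM of the compound Pyrydopyrazine A2, or given all-trans retinoic acid (RA) with 1α-hydroxy vitamin D3 (D3V) at 10 µM each. Per the series design, the treated cells were compared with untreated ones to obtain an expression signature. There was 1 array of the one-colour Agilent type per condition, so every difference below is between single arrays, has no replicate check and carries no test.

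All 3 arrays lay on 1 slide, 46.0% to 46.8% of 59305 spots were well above background on each, and 0 spots were saturated. Replicate spots of a probe had a median SD of 0.0606 to 0.0703 on the log2 scale. A further control column, in the authors' deposited value table, matched no scanner file and is called the second control. It differed from the untreated array with an SD of 0.284 over 17017 genes, and by -0.45 (Atp6v0d1) to 0.31 (Neu1) over 31 lysosome genes. The treated labels are contradictory. By rank over all spots, the value table's column labelled RA+D3V was the same as the scanner file labelled A2 (Spearman 1.0), and its column labelled A2 the same as the scanner file labelled RA+D3V (Spearman 1.0). Arrays are therefore called A2-labelled and RA+D3V-labelled after their scanner files, and no direction below can be assigned to a compound. Of 13 myeloid progenitor and leukaemia markers, 12 were well above background on every array and Meis1 was on none.

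Promoters are shown for the members past 2-fold on each treated array (Ctsd, Grn and Psap), for the members with the lowest difference on either one (Ctsf and Lamp1) and for Tfeb. They are RefSeq sequences of build GRCm38.p6, which run from 250 bases before to 50 after the annotated start. CACGTG, the core of the E-box that TFEB is known to bind, is in capitals.
Ctsd (chr7:142387778-142388077, minus strand): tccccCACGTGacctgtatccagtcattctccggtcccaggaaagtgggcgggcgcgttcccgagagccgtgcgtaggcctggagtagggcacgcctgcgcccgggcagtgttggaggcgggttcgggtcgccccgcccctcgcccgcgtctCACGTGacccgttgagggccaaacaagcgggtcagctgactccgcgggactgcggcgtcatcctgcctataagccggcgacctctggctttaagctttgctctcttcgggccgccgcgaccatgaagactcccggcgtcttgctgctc
Lamp1 (chr8:13158911-13159210, plus strand): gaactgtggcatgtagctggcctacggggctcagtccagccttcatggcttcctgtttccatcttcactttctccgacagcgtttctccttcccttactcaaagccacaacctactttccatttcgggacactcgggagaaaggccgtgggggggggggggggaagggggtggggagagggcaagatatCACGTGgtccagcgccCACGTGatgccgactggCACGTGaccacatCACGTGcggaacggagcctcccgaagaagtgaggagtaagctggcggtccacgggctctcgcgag
Ctsf (chr19:4854915-4855214, plus strand): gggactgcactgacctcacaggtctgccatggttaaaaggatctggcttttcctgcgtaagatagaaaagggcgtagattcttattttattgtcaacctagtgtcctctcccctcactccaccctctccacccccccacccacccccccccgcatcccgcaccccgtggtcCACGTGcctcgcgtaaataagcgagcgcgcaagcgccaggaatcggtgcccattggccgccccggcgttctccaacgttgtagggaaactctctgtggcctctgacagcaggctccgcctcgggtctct
Psap (chr10:60277378-60277677, plus strand): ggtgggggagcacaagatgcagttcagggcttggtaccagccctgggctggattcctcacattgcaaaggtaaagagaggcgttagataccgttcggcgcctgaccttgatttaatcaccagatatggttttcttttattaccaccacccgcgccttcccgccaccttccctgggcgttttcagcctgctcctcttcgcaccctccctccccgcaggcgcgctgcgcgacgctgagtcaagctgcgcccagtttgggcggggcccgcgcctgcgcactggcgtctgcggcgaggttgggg
Grn (chr11:102430257-102430556, plus strand): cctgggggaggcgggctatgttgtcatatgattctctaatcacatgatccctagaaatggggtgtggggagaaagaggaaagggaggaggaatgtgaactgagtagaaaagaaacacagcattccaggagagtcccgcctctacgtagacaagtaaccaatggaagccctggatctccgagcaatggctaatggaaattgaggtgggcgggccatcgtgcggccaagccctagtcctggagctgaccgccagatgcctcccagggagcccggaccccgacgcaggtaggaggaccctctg
Tfeb (chr17:47736787-47737086, plus strand): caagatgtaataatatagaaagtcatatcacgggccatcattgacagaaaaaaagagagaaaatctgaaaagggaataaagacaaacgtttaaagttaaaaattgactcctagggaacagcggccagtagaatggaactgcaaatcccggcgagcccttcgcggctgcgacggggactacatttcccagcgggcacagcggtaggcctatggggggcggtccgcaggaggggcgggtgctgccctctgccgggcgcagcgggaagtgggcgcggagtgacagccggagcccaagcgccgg
Ctsd held the core 2 times, at -245 and -98 relative to the start, and Lamp1 held it 4 times. Ctsf held it 1 time, while the windows of Psap, Grn and Tfeb shown here held none. Further RefSeq windows of Psap and Tfeb are not printed, and Ctsb, Ctsh, Asah1, Npc1 and Atp6v0d2 have no entry.

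Of 28 members with a promoter in the RefSeq table, 11 (39.3%) had CACGTG in at least 1 window. The share was 8.09% of 27025 genes with a promoter and 7.15% of 32851 single windows. Of 123 further lysosome and autophagy genes with a promoter, 25.2% had CACGTG and 23.6% TCACGTG. The longer TCACGTG, searched on both strands and overlapping the core, was found for 9 members (32.1%) against 4.29% of genes. A match describes these letters in this window and not binding. The 11 members with CACGTG that were measured had a median log2 difference of 1.23 on the A2-labelled array, with 6 of them at least 2-fold higher, and the 16 without it one of 0.82, with 7 at least 2-fold higher. On the RA+D3V-labelled array the medians were 0.58 and 0.61. Members with and without the core overlapped over most of their range on either array, and the genes with the highest difference on the A2-labelled array, Psap and Lipa, had no match.

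Lysosome genes were higher as a group on the A2-labelled array. The members were chosen with earlier results of these data known, so their counts beside those of all genes, here and below, are descriptions only. In a bulk sample, a difference in the share of a cell type and one in RNA per cell cannot be told apart. The level of 31 members was well above background both with and without treatment. Of these, 16 were higher by 2-fold or more and 0 were lower by as much. Among all 17292 genes measured there, 7.92% passed 2-fold upward and 6.47% downward. Among 5256 genes at least as bright as the lower quartile of the members, 7.4% were at least 2-fold higher. The members' median log2 difference was 1.00 and that of all genes -0.03. In total 28 of 31 members lay above 0, against 47.8% of all genes. The difference exceeded 0.45, the largest gap of any of these 31 members between the control sources, in 24 members above and 1 below, and in 22.5% of all genes above and 22.9% below. The threshold runs through a cluster of values. Smpd1 (2.003-fold), Grn (2.02-fold) and Lamp2 (2.04-fold) were just inside it, and Npc1 (1.998-fold) and Ctsa (1.99-fold) just outside. With normexp background correction the count was 13.

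Psap and Lipa, genes of lipid breakdown, had the highest differences of the members on the A2-labelled array. Psap encodes prosaposin, the precursor of saposins that assist sphingolipid hydrolysis. Its log2 level, relative to the 75th percentile of each array, was 5.21 on the untreated array, 6.26 on the RA+D3V-labelled array and 8.44 on the A2-labelled array (probe at chr10:59764825-59764884, mm9). This is a 9.36-fold higher signal on the A2-labelled array than without treatment, a difference exceeded by 108 of 17292 genes, and 2.07-fold on the RA+D3V-labelled array. Lipa encodes the acid lipase that hydrolyses cholesteryl esters and triglycerides. Its level was 1.63 untreated, 1.93 on the RA+D3V-labelled array and 4.51 on the A2-labelled array (chr19:34567717-34567776). Lipa was thus 7.35-fold higher on the A2-labelled array. On the other treated array it was within the gap between the control sources, since the second control lay at 1.93 as well.

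The remaining lipid genes were higher by smaller amounts. Asah1, the acid ceramidase, had levels of 1.81, 2.37 and 3.02 on the untreated, RA+D3V and A2 arrays, a 2.31-fold higher signal on the last. A second Asah1 probe gave log2 differences of 1.39 (A2) and 0.85 (RA+D3V). Smpd1, the acid sphingomyelinase, had levels of 4.28, 4.95 and 5.29. Npc1 and Npc2, which together export cholesterol from the lysosome, had log2 differences of 1.00 and 0.60 on the A2-labelled array and of 0.18 and 0.32 on the RA+D3V-labelled array. All 6 genes of this role lay above 0 on both treated arrays, from 0.60 to 3.23 (A2) and from 0.18 to 1.05 (RA+D3V).

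Among the other peptidases, cathepsin D, Ctsd, an aspartic protease, was high on both treated arrays. Its level was 6.19 untreated, 7.87 on the RA+D3V-labelled array and 9.07 on the A2-labelled array (chr7:149561962-149562021), or 3.21-fold and 7.34-fold higher. Its second probe gave larger log2 differences, 2.07 and 3.62, than the 1.68 and 2.88 of the brightest one. Ctsd had the highest difference of the members on the RA+D3V-labelled array. Ctsa, the carboxypeptidase that protects other lysosomal enzymes, had levels of 7.46, 8.24 and 8.45, with a second probe at differences of 0.73 (RA+D3V) and 1.08 (A2). Tpp1, the tripeptidyl peptidase, differed by 0.06 and 0.53.

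Of 6 measured cysteine cathepsins, 4 were at least 2-fold higher on the A2-labelled array and 0 on the RA+D3V-labelled array. Of all genes 7.92% (A2) and 7.82% (RA+D3V) were, so the count of 0 of 6 is near the share of other genes. Ctsb, a widely expressed endopeptidase with exopeptidase activity, had levels of 6.75 untreated, 7.11 on the RA+D3V-labelled array and 8.84 on the A2-labelled array (chr14:63761906-63761965). Ctsb was thus 4.28-fold higher than untreated on the A2-labelled array and 1.28-fold higher on the other. Ctsh, an aminopeptidase, had levels of 6.03, 6.70 and 7.54. Ctss, which trims the invariant chain in antigen presenting cells, had levels of 5.68, 6.44 and 6.97. Ctsl, an endopeptidase, had levels of 5.19, 5.77 and 6.46. These 3 genes were 2.41-fold to 2.86-fold higher on the A2-labelled array and each had its middle level on the RA+D3V-labelled array.

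The other cysteine cathepsins did not reach 2-fold. Ctsz, a carboxypeptidase, differed by 0.83 (A2) and 0.35 (RA+D3V). Ctsf had the lowest difference of all members on the A2-labelled array, with levels of -1.41, -0.99 and -1.98 on the untreated, RA+D3V and A2 arrays. Its second control value was -1.28, so the level on the A2-labelled array lay below both control sources. Ctsk, the collagenase of osteoclasts, was not well above background on the untreated array and had levels of -3.10 (RA+D3V) and -2.97 (A2). Against the lowest signal called well above background or its own signal, whichever was higher, it was at least 1.69-fold and at least 1.85-fold higher, which does not reach 2-fold.

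Glycosidases split by gene. Neu1, the sialidase, had levels of 5.26 untreated, 6.25 on the RA+D3V-labelled array and 7.09 on the A2-labelled array, or 1.99-fold and 3.56-fold higher. Naglu, which removes N-acetylglucosamine from heparan sulfate, had levels of 2.38, 2.74 and 3.92. Both were at least 2-fold higher on the A2-labelled array, and the other 5 glycosidases were not on either array. Of all genes 7.92% (A2) and 7.82% (RA+D3V) were at least 2-fold higher. Gusb, the beta-glucuronidase, is read by 10 replicate spots on each array, and their means were 5.52 (SD 0.0651), 6.47 (SD 0.0493) and 5.91 (SD 0.0397). The spots of the 3 arrays did not overlap, since they ran from 5.41 to 5.67 untreated, from 6.42 to 6.58 on the RA+D3V-labelled array and from 5.84 to 5.96 on the A2-labelled array. Spots of 1 array share 1 RNA sample and show only the error of the measurement. A second Gusb probe gave differences of 0.66 (RA+D3V) and 0.01 (A2).

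Glb1, the beta-galactosidase, and Man2b1, the alpha-mannosidase, resembled Gusb in that the RA+D3V-labelled array was the highest. Glb1 had levels of 4.31, 4.95 and 4.59 on the untreated, RA+D3V and A2 arrays. Man2b1 had levels of 5.47, 6.19 and 5.76. Hexa, the alpha subunit of beta-hexosaminidase, differed by 0.39 (RA+D3V) and 0.81 (A2). Gla, the alpha-galactosidase, lay within 0.14 of 7.62 on all arrays.

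**Figure D1:**
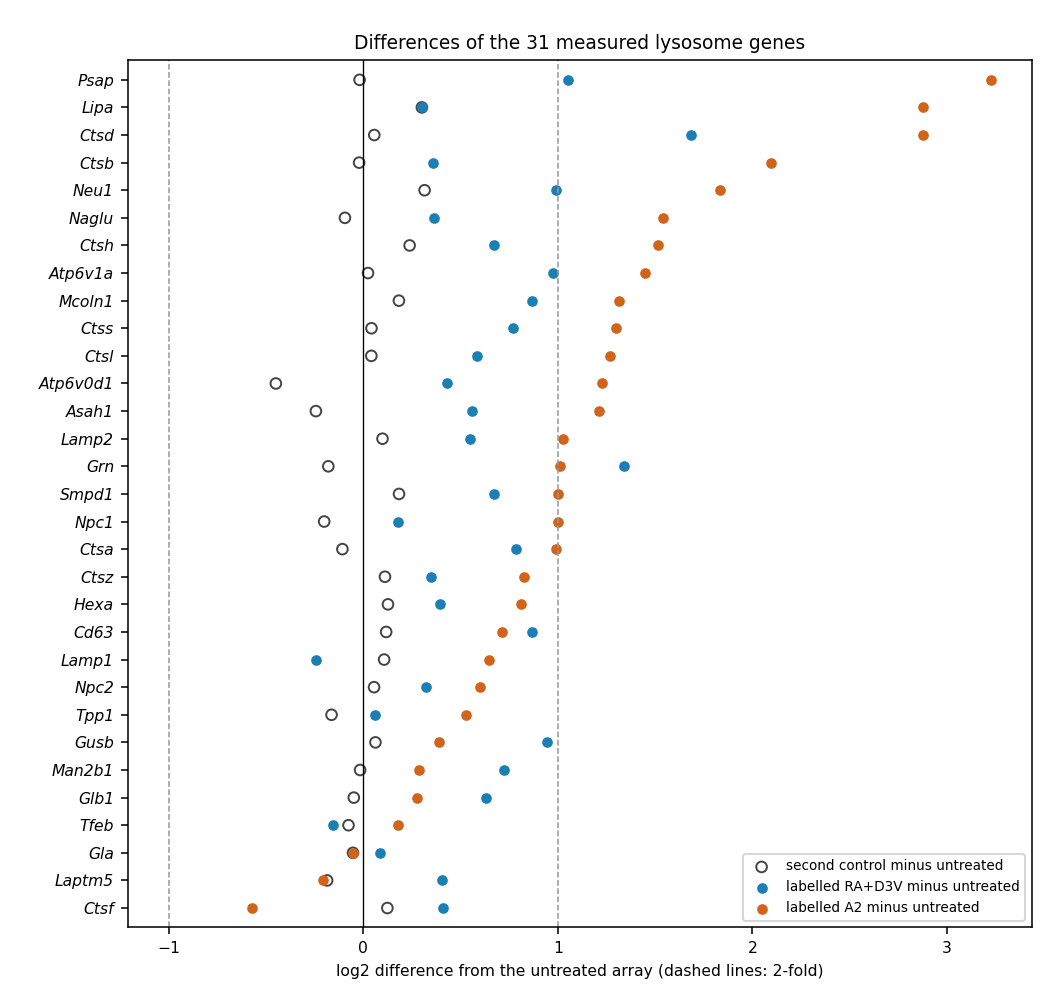
Log2 difference from the untreated array for the 31 measured lysosome genes, for the A2-labelled array (orange), the RA+D3V-labelled array (blue) and the second control values (open circles), with dashed lines at 2-fold. On the A2-labelled array 16 genes lie right of the line and on the RA+D3V-labelled array 3 do, while no control point reaches it.

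Of 5 membrane proteins, 2 were past 2-fold upward on the A2-labelled array and 0 on the other (medians 0.71 and 0.55). Of all genes 7.92% (A2) and 7.82% (RA+D3V) were, so the count of 0 of 5 is near the share of other genes. Mcoln1, the calcium channel of the lysosomal membrane, had levels of 3.52 untreated, 4.39 on the RA+D3V-labelled array and 4.83 on the A2-labelled array. Lamp2 had levels of 4.13, 4.68 and 5.16, and its second probe gave differences of 0.88 (RA+D3V) and 1.15 (A2). Mcoln1 and Lamp2 were the membrane proteins past 2-fold, at 2.48-fold and 2.04-fold on the A2-labelled array. Lamp1 had levels of 8.31, 8.07 and 8.95 and was the lowest of the members on the RA+D3V-labelled array. Cd63, a tetraspanin of late endosomes, differed by 0.87 (RA+D3V) and 0.71 (A2). Laptm5, a lysosomal protein of blood cells, differed by 0.40 and -0.21 with the brightest probe and by 0.54 and -0.06 with another.

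All 3 proton pump subunits were higher on both treated arrays than on the untreated one, as far as they were measured. Atp6v1a, the catalytic subunit, had levels of 4.27 untreated, 5.25 on the RA+D3V-labelled array and 5.72 on the A2-labelled array, with differences of 0.77 and 1.17 on its other probe. Atp6v0d1, the common form of the membrane sector subunit d, had levels of 4.37, 4.80 and 5.59, and its second control value of 3.92 lay below the untreated array by about as much as the RA+D3V-labelled array lay above it. Atp6v0d2, the form of this subunit known from osteoclasts, was not above background on the untreated array, with levels of -6.13, -2.23 and -1.81. It was at least 3.88-fold higher on the RA+D3V-labelled array and at least 5.20-fold higher on the A2-labelled array. Its other probe was not above background on any array, so these bounds rest on 1 probe.

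Grn encodes progranulin, a secreted and lysosomal glycoprotein. Its level was 5.78 untreated, 7.12 on the RA+D3V-labelled array and 6.79 on the A2-labelled array, or 2.53-fold and 2.02-fold higher. Tfeb, the regulator named above, had levels of 0.73, 0.58 and 0.91. Tfeb therefore differed by -0.16 and 0.18, less than the largest gap between the control sources for a member above background on all arrays. An array measures the transcript, and TFEB is known to be controlled largely by its location in the cell, which was not measured.

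On the RA+D3V-labelled array the members lay higher than untreated by less. Only 3 of 31, Ctsd, Grn and Psap, were higher than untreated by 2-fold or more and 0 were lower by as much. Over all 17292 measured genes 7.82% passed 2-fold upward and 5.04% downward, and of the brighter genes 5.16% were higher, so the share of members past 2-fold, which is 3 of 31, is near that of other genes. The members' median of 0.56 was above the -0.03 of all genes. In total 29 of 31 members lay above 0, against 48.2% of all genes, with Lamp1 and Tfeb below, and 17 lay above 0.45 and 0 below -0.45, against 22.8% and 21.6% of all genes. Neu1 (1.99-fold) and Atp6v1a (1.97-fold) were just below the threshold, and scaling to the median of detected probes gave a count of 5. Both comparisons share the untreated array.

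**Figure D2:**
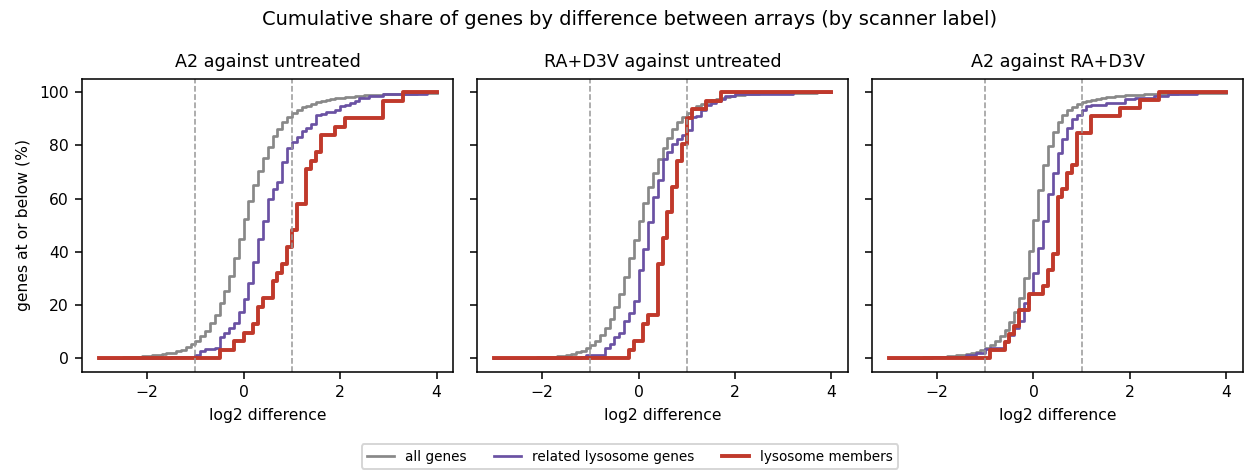
Cumulative percent of genes at or below each log2 difference for all genes (grey), 158 related lysosome and autophagy genes as far as measured (purple) and the lysosome members (red), in the 3 comparisons between arrays, with dashed lines at 2-fold. Against the untreated array the members' medians are 1.00 (A2) and 0.56 (RA+D3V), and the red curve lies right of the grey one over most of its range, but in the RA+D3V panel the curves meet near 2-fold.

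The treated arrays were also compared with each other, which does not use the untreated array. All 33 members were well above background on both. On the A2-labelled array 5 were higher by 2-fold or more and 0 lower, against 3.78% and 4.05% of 17643 genes, and 2.59% of the brighter genes were at least 2-fold higher. The 5 were Lipa (5.97-fold), Psap (4.52-fold), Ctsb (3.34-fold), Ctsd (2.29-fold) and Naglu (2.26-fold). The median of the members was 0.47 and that of all genes -0.02, and 25 of 33 members lay above 0, against 47.9% of all genes. The 8 members that were higher on the RA+D3V-labelled array were Ctsf (1.98-fold), Laptm5, Gusb, Man2b1, Glb1, Grn, Cd63 and Gla. Of the 7 glycosidases 4 belonged to these 8, and 0 of 6 lipid genes did. Scaling to the median of detected probes took Ctsf past 2-fold.

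**Figure D3:**
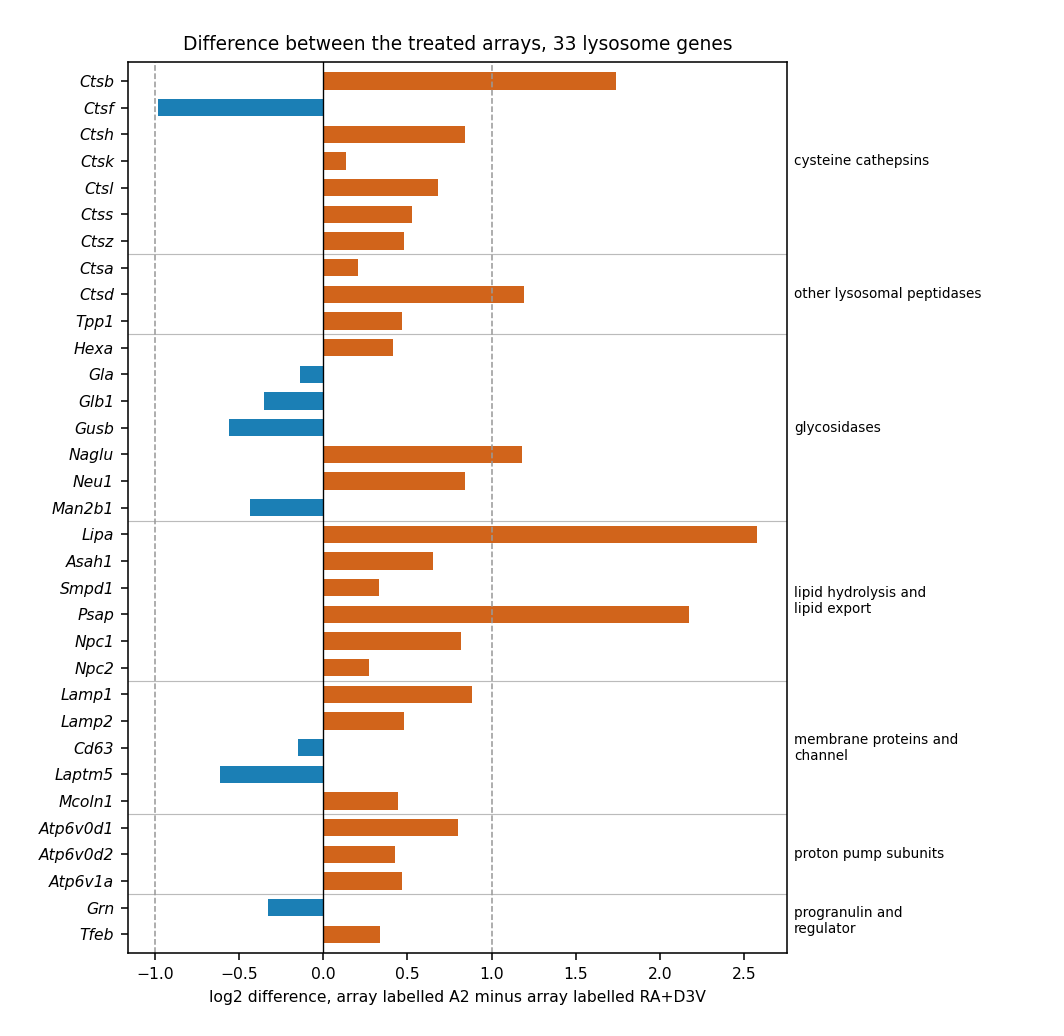
Log2 difference between the A2-labelled array and the RA+D3V-labelled array for 33 lysosome genes, grouped by role, with orange bars for genes higher on the former, blue bars for genes higher on the latter and dashed lines at 2-fold. Lipa and Psap have the longest bars to the right, and Ctsf the longest to the left.

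Other genes of the pathway were read from 7 further lists of 158 genes. Their counts stand beside the shares of all genes given above, which were 7.92% higher and 6.47% lower on the A2-labelled array and 7.82% and 5.04% on the RA+D3V-labelled array. Of 34 other hydrolases and activators with a measured difference, 11 were at least 2-fold higher on the A2-labelled array and 0 lower (median 0.77), and 7 were higher and 1 lower on the RA+D3V-labelled array (median 0.44). Lgmn, the asparaginyl endopeptidase that processes cathepsins, had levels of 1.72 untreated, 4.91 on the RA+D3V-labelled array and 5.44 on the A2-labelled array, and thus led both. Hgsnat, an enzyme of heparan sulfate breakdown, differed by 2.53 (A2) and 1.63 (RA+D3V). Arsg, a sulfatase, differed by 2.37 and 0.54, and Naaa, an amidase of N-acylethanolamines, by 0.33 and 1.77. Acp5, the tartrate-resistant phosphatase, went in opposite directions, with levels of 2.49 untreated, 1.38 on the RA+D3V-labelled array and 4.72 on the A2-labelled array.

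Other membrane proteins were at least 2-fold higher in 6 of 24 on the A2-labelled array (median 0.38) and in 4 of 23 on the RA+D3V-labelled array (median 0.10), with 0 and 1 lower, where 7.92% and 7.82% of all genes were higher. Litaf, a late endosomal membrane protein, differed by 2.81 on the A2-labelled array and by 0.32 on the other. Slc11a1, the phagosomal metal transporter known as NRAMP1, differed by 1.98 and -0.73, and Scarb2, the receptor that carries glucocerebrosidase to lysosomes, by 1.87 and -0.02. On the RA+D3V-labelled array Entpd4 (1.78), the sialic acid exporter Slc17a5 (1.54) and the amino acid transporter Slc36a1 (1.36) were highest, and the channel gene Tpcn1 was lowest (-1.26). The proton pump list had 4 of 15 at least 2-fold higher on the A2-labelled array and 1 of 15 on the RA+D3V-labelled array (medians 0.53 and 0.36). Against the untreated array, the latter count is near the 7.82% of all genes. Tcirg1, the a3 subunit, differed by 2.04 (A2), with Atp6v0c at 1.43 and Atp6v1g1 at 1.26. The only one past 2-fold upward from the untreated array on the RA+D3V-labelled array was Atp6v0a1 (1.43), which differed by 0.18 on the A2-labelled array. This RA+D3V count depends on the processing and on the control, and was 2 with quantile normalization. With the second control it was 3, where 6.64% of all genes passed, since Tcirg1 (1.14) and Atp6v0c (1.13) were also past 2-fold.

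Sorting genes had 1 of 19 at least 2-fold higher on each treated array, the sorting receptor Sort1 (1.19 and 1.00), where 7.92% (A2) and 7.82% (RA+D3V) of all genes were. Autophagy genes had 2 of 27 on the A2-labelled array, Atg9a (1.34) and Plekhm1 (1.18), and 3 of 27 on the RA+D3V-labelled array, Atg9a (1.93), the kinase Ulk1 (1.23) and Plekhm1 (1.01). The medians of these lists were 0.20 and 0.17 on the A2-labelled array and 0.09 and 0.09 on the RA+D3V-labelled array. Sort1 depends on the processing. With the mean of all probes of a gene, 0 sorting genes were at least 2-fold higher on either treated array. With normexp or the second control, 0 were on the RA+D3V-labelled array. Of 20 measured genes of MiT/TFE factors and nutrient sensing, 2 were past 2-fold upward and 1 downward on the A2-labelled array (median 0.36), and 1 and 0 on the RA+D3V-labelled array (median 0.15). Mitf was 2.32 higher on the A2-labelled array on the log2 scale and 0.29 on the RA+D3V-labelled array. Fnip2, a partner of folliculin, differed by 1.98 and 1.19, and Mlst8, a subunit of mTOR complexes, by -1.05 and -0.75. Tfe3 (-0.08 and -0.06) stayed within the spread of the controls. Of 10 measured cathepsin inhibitors, Cstb (1.03) and Cst6 (1.43) were at least 2-fold higher and Cst7 (-1.54) lower on the A2-labelled array, and 4 were higher on the RA+D3V-labelled array, led by Serpinb1a (1.09), Cst6 (1.07) and Stfa1 (1.06). The medians of this list were 0.19 (A2) and 0.50 (RA+D3V). These counts depend on the processing, since normexp left 0 higher on the A2-labelled array and 1 on the other, and quantile normalization left 1 and 2. Cst6 depends on the control used, since its differences from the second control were 0.56 and 0.20.

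**Figure D4:**
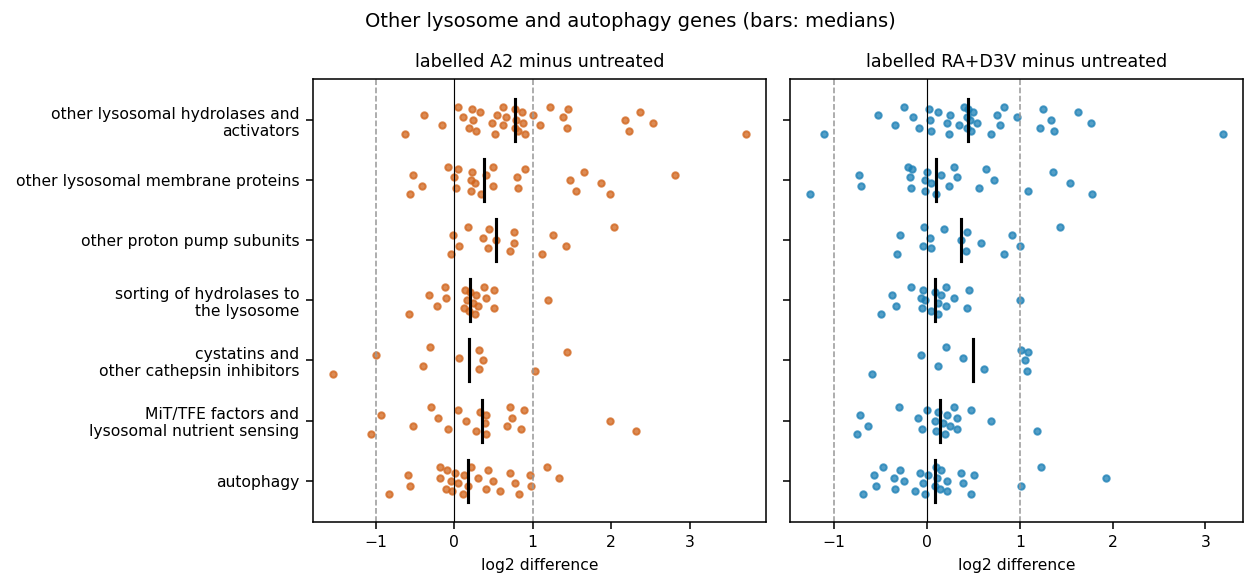
Log2 difference from the untreated array for the measured genes of 7 lysosome and autophagy lists, on the A2-labelled array (left) and the RA+D3V-labelled array (right), 1 point per gene, with black bars for medians and dashed lines at 2-fold. Hydrolases have the highest median on the left (0.77), and the point farthest right in both panels is Lgmn.

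Monocyte and macrophage markers were also higher on the treated arrays. Of 14 monocyte and macrophage markers on the array, 12 were well above background untreated and 14 on each treated array, with Mrc1 and Mertk not above background untreated. Their summed linear level, in multiples of the 75th percentile, was 137 untreated, 312 on the RA+D3V-labelled array and 226 on the A2-labelled array. The marker counts in this paragraph stand beside the all-gene shares past 2-fold. Upward these shares were 7.92% (A2) and 7.82% (RA+D3V), and downward 6.47% and 5.04%. Of the 12 measured monocyte and macrophage markers, 8 were at least 2-fold higher on the RA+D3V-labelled array (median 1.94). On the A2-labelled array 6 were (median 0.95), and 2 were lower by as much on each treated array. The order of the treated arrays in this list was the reverse of that in the lysosome genes, whose median was higher on the A2-labelled array. Osteoclast markers had summed levels of 9.39, 11.7 and 32.4 on the untreated, RA+D3V and A2 arrays, with Calcr not above background on any and Dcstamp above it on the RA+D3V-labelled array alone. Most of the A2 sum was Acp5, with a log2 level of 4.72. Of 6 measured osteoclast markers, 1 was at least 2-fold higher and 0 lower on the A2-labelled array (median 0.66), and 2 were higher and 1 lower on the RA+D3V-labelled array (median 0.49). Neutrophil markers had summed levels of 647, 1048 and 818, but only 2 of 9 were at least 2-fold higher and 1 lower on each treated array (medians 0.17 for A2 and 0.38 for RA+D3V). Progenitor and leukaemia markers had sums of 1484, 1116 and 795, to which Mpo added most of the difference with log2 levels of 9.39, 7.82 and 7.17. Of 12 measured, 2 were past 2-fold upward and 3 downward on the A2-labelled array (median -0.20), and 0 and 2 on the RA+D3V-labelled array (median 0.16). On the A2-labelled array Kit (1.70) and Hoxa9 (1.19) were the 2 upward, and Flt3 (-2.28), Mpo (-2.22) and Cd34 (-1.30) the 3 downward. On the RA+D3V-labelled array 7 of these markers lay above 0 and 5 below, so the sums do not describe the list as a whole. Lymphoid T and NK markers were at least 2-fold lower in 3 of 5 on the A2-labelled array (median -1.81) and in 2 of 4 on the RA+D3V-labelled array (median -1.06). Measured erythroid markers were so in 2 of 3 (median -1.06) and 1 of 2 (median -0.90), and 0 measured markers of either list were at least 2-fold higher. The erythroid markers Klf1 and Epor were not above background untreated. Klf1 was above it on the A2-labelled array alone and Epor on both treated arrays, while Car2 was not on the RA+D3V-labelled array. Megakaryocyte markers had sums of 0.719, 20.3 and 11.1, and the 2 measured, Pf4 and Vwf, were at least 2-fold higher on each treated array. Pf4 differed by 4.50 (A2) and 5.68 (RA+D3V), and Vwf by 3.70 and 1.91. The megakaryocyte markers Itga2b, Gp9 and Gp1bb were not above background on any array. The B cell markers Pax5 and Ebf1 and the endothelial marker Cdh5 were not either. The part of these cell types in the lysosome result was not tested.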

How the data were processed

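Total RNA was measured on 3 one-colour (Cy3) Agilent arrays, 1 per condition. Per the file headers, the intensity of each spot in the deposited scanner files was computed with Agilent Feature Extraction 11.5.1.1 and corrected within each array for background and spatial trend and not scaled between arrays, with probe positions in mm9. The deposited flags are values of 0 or 1 that the authors' scanner software set. The authors' deposited value table holds intensity on a linear scale with the same quantiles in its 3 columns, and how it was made is not given in the sources used here.

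Control spots and 25 spots marked as uneven on any array were left out (0 of them of a member). Processed signals were divided by their array's 75th percentile and taken to log2, spots of a probe were averaged, and genes were taken by the name in the scanner files. Genes whose probe exceeded background, by the scanner's flag, on each of the compared arrays count as measured, and differences of 2-fold or more are counted. The precision is limited by the number of arrays. No test was run. The members and lists were chosen with earlier results of these data known. All members were named, and of each further list the genes past 2-fold on a treated array, at most 3 per direction and those farthest from 0. Tfe3, and values given beside the named ones, were added after their values were seen. Motifs were searched in RefSeq promoters. The positions of probes relative to exons are not given, since the annotation used here is of another build. Steps were tested on simulated data. Python 3.11.15, pandas 2.3.3, R 4.3.3 and limma 3.58.1 (normexp with an offset of 50) were used. Alternatives were normexp, other scalings, other filters on dim probes, all probes of a gene, the value table, its control column and other fold thresholds.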

Additional observations from a re-analysis of the deposited data

How the results depend on the processing

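Values of single arrays bound what these data can show, and the only spread at hand is that between the control sources. The origin of the second control is unknown. Its values come from the value table, whose columns have the same quantiles, and those of the untreated array from a scanner file. A difference between samples and one in processing cannot be told apart in this spread. No paired analysis was possible because each condition has 1 array, and leaving out a replicate was not possible for the same reason. None of the member differences past 2-fold changed sign under any alternative run. The number of members at least 2-fold higher on the A2-labelled array stayed within 1.5 times of 16 under every alternative except a 3-fold threshold, which left 5. At 3-fold the counts were 1 on the RA+D3V-labelled array and 3 for A2 against RA+D3V, and at 1.5-fold they were 14 and 12, with 2 members lower in the latter. Fewer or more genes pass by construction there. Scaling to the median of detected probes gave 5 members higher on the RA+D3V-labelled array and 1 lower for A2 against RA+D3V. Subtracting the median of all genes, an alternative added after the data were seen, also gave 5 on the RA+D3V-labelled array. The members' median was 0.91 (A2) and 0.45 (RA+D3V) with normexp. With the mean of all probes of a gene it was 0.63 on the RA+D3V-labelled array. For A2 against RA+D3V it was 0.40 with quantile normalization and also 0.40 in the authors' deposited value table. For A2 against untreated it was 1.11 in that table and 1.098 with its control column in place of the untreated array. The cause of these shifts was not tested. Without a filter on dim probes the median of all genes was 0.02 (A2), 0.19 (RA+D3V) and -0.18 (A2 against RA+D3V). Of single member differences under the alternatives, 15 moved by more than 0.284, the SD between the control sources, and 900 did not. Many of the 900 could not move by that much. The filters on dim probes and on G and T stretches leave a member's value as it was. Subtracting the median of all genes shifts every gene by the same small amount. Of the counts of the 7 further lists, 34 moved by more than 1.5 times and 372 did not. Of the members, 0 were read by a probe with an alternating stretch of G and T of 8 bases or longer. Leaving out such probes could therefore change no member.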
